A study of Solanum lycopersicum with 9 samples.

Results

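Leaves of tomato (Solanum lycopersicum, cultivar Diana) were compared after 2 days without p-hydroxybenzoic acid (PHBA, 0 mM, the untreated control), with 15 mM PHBA and with 30 mM PHBA, and the question was where the middle dose lay between the other doses. Plants were treated a month after planting, and each dose had 3 libraries of total leaf RNA, 9 in all, each of which enters the comparison (9 of 9). On a log2(FPKM + 1) scale (FPKM, fragments per length of sequence and per library depth) the mean of the 15 mM libraries was set against the average of the control and 30 mM means, the midpoint. The difference, called the departure, is 0 for a straight line through the doses. The labels say that RNA of the same treatment was mixed in equal parts, and no label ties a library to a plant of its own. The p-values here therefore reflect how much the libraries varied, and that variation may be technical. Of the 82125 assembled sequences in the table, 44203 had at least 0.5 FPKM in at least 3 libraries and were tested, 13634 with a protein annotation and 30569 without.

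PHBA is a phenolic acid that plants and decaying residues release into soil, and it can slow the growth of neighbouring plants. Plant cells handle foreign phenolics by oxidising or reducing them, by coupling them to sugars or glutathione, and by moving the products into the vacuole or out of the cell. A transcript can answer a rising dose in steps of equal size, late (little at the middle dose and most of the change above it), early (most of the change by the middle dose), or by turning, with a peak or trough at the middle dose. A negative departure marks a late rise or an early fall, and a positive departure marks an early rise or a late fall. Beyond both ends it marks a trough or a peak.

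The libraries did not stand at even distances. On the first principal component, with 28.3% of the variance, the controls lay at -60.7 to -44.5, the 15 mM libraries at -9.4, -34.3 and 0.4 and the 30 mM libraries at 59 to 87, so the 15 mM mean (-14.4) fell short of the midpoint (7.2). The second 15 mM library stood nearest to the controls. Its annotated sequences had a median distance of -0.14 from the midpoint, against 0.05 and 0.19 in the other 15 mM libraries. The 4 sequences most abundant on average over the 9 libraries, none annotated, held 44.6% of its FPKM. Their share was 34.3 and 26.9% in the other 15 mM libraries, 33.5 to 42.4% at 30 mM and 39.4 to 45% in controls. Relative depth was 0.90 to 1.21 in the 9 libraries. As deposited, the median difference over all sequences was 0.15 between 15 mM and control and 0.18 between 30 mM and control (log2 scale). This median was within 0.01 of 0 after quantile or median-of-ratios scaling, which bring the libraries to a common level by design. The median departure of 0.039 became 0.001 and -0.006. Departures of gene groups moved with scaling too. After median-of-ratios rescaling the median for annotated falls at 30 mM went from 0.25 to 0.16, and that for photosystem subunits from 0.27 to 0.19. Each 15 mM library is therefore given on its own beside the summaries of gene groups below.

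Few single sequences departed from the midpoint beyond the spread between libraries. With limma and Benjamini-Hochberg adjustment over all sequences tested, 13 of 44203 (0.0294%) passed an adjusted p under 0.05, 10 higher at 15 mM (0.0226%) and 3 lower (0.00679%). No annotated sequence passed, and the smallest adjusted p among them was 0.0908. At an unadjusted p under 0.05 there were 589 annotated sequences above the midpoint (4.32%) and 387 below it (2.84%), and among all sequences 2089 (4.73%) and 1235 (2.79%). A positive departure of any size was found in 7893 of 13634 annotated sequences. The annotated shares are the background for the counts in gene lists below. The standard error of a departure had a median of 0.20 on the log2 scale (quartiles 0.16 and 0.30), and the median departure was 0.039 over all sequences and 0.034 over annotated ones. The counts varied with single libraries. They were lowest without 15 mM replicate 1 (3 higher and 2 lower). They were highest without 30 mM replicate 2 (19 higher and 12 lower, 5 of these annotated). Array weights, estimated from how far each library strayed from its dose mean, gave 35 higher and 22 lower, 11 of these annotated. The weight was 2.99 for 15 mM replicate 1 and 0.542 and 0.654 for replicates 2 and 3, so that setting leans on replicate 1.

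Each of the 13 called sequences was listed at 0 in all libraries of 2 doses and was present in all libraries of the remaining dose. They passed the filter on low values, 0.5 FPKM in 3 libraries, only through the dose in which they were present, so the filter itself fixed that they differ between doses. Their number is given as a description and supports no statement on 15 mM. The 10 higher ones were present only at 15 mM, at 1.44 to 7.11 FPKM in single libraries, and 9 of the 10 carry the name of an assembly of a 15 mM library. T15_3_TRINITY_DN28495_c0_g1 had 0 FPKM in each library at 0 mM, 3.91, 4.84 and 4.16 FPKM at 15 mM, and 0 FPKM in each library at 30 mM. Its departure was 2.40 ± 0.12 (SE). Of the 3 lower ones, 2 were present only at 30 mM and 1 only in controls. T30_2_TRINITY_DN14566_c0_g1, present only at 30 mM, had 0 FPKM in each library at 0 mM, 0 FPKM in each library at 15 mM, and 25.1, 15.1 and 20.6 FPKM at 30 mM, with a departure of -2.19 ± 0.15 (SE). These sequences have no annotation, and both were picked after their values were seen. In all, 24 sequences were above 0 in all 3 controls and in no other library (1 of them called), 31 in those of 15 mM alone (10 called) and 64 in those of 30 mM alone (2 called). A value of 0 FPKM can also be a failed estimate, so no fold is given.

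**Figure D1:**
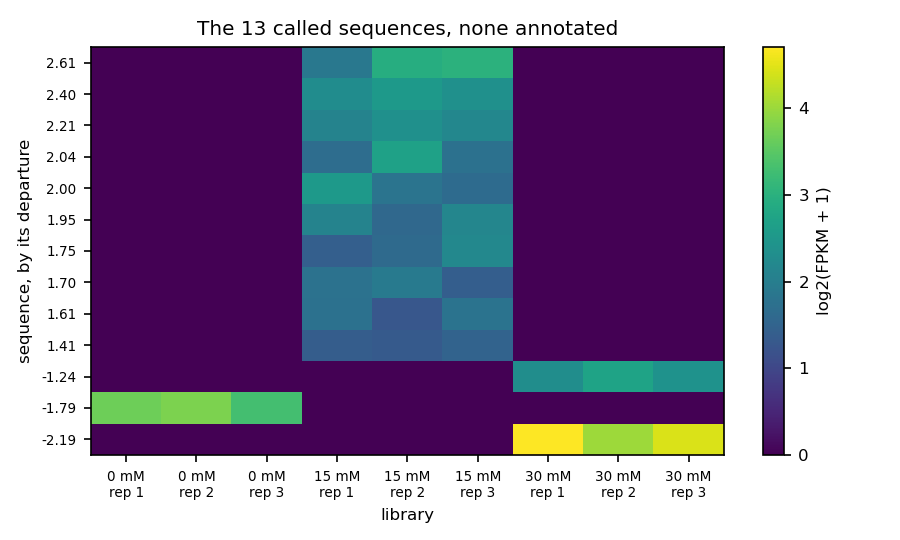
Level, as log2(FPKM + 1) in colour, of the 13 sequences with a departure past the threshold (rows, labelled by their departure on the log2 scale) in the 9 libraries (columns, in dose order). In each row 2 of the 3 doses are at 0; 10 rows are present only at 15 mM.

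Outside the annotation, at a mean of 5 FPKM or more, T15_1_TRINITY_DN410_c0_g2 had the largest positive departure and TCK_2_TRINITY_DN53396_c0_g1 the largest negative one. The first had 0, 0 and 11.5 FPKM at 0 mM, 24.1, 10.7 and 25.9 FPKM at 15 mM, and 0, 0.08 and 0 FPKM at 30 mM, and its departure of 3.69 ± 0.75 (SE, 95% interval 1.99 to 5.38, adjusted p = 0.211) did not pass the threshold. Control replicate 3 was above the lowest 15 mM library, and without that library it passed (departure 4.30, adjusted p = 0.00337; 0.00337 to 0.506 over all alternatives). The second had 0, 24.1 and 8.40 FPKM at 0 mM, 0 FPKM in each library at 15 mM, and 0, 42.2 and 10.1 FPKM at 30 mM. It was at 0 in all 15 mM libraries but also at 0 in 1 library of each other dose, with a departure of -2.80 ± 1.23 (SE, 95% interval -5.58 to -0.02, adjusted p = 0.663).

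Transcripts that rose at 30 mM mostly lay a little below the midpoint at 15 mM. Their median did so only with 15 mM replicate 2 included. Of the 2876 annotated sequences called higher at 30 mM than in controls (1301 to 3230 with single libraries left out; 1301, 1401, 1793 and 1552 without control replicates 1, 2 and 3 and 30 mM replicate 1), 2073 (72.1%) lay below the midpoint at 15 mM, with a median departure of -0.10 (quartiles -0.24 and 0.02), against 0.03 over all annotated sequences. The median step was 0.37 between 0 and 15 mM and 0.56 between 15 and 30 mM. The median distance was -0.07, -0.29 and 0.06 in the 3 libraries of 15 mM, and without the second it was 0.00. The distance below the midpoint grew with the size of the rise. In late rises of 1 shape the departure is a fixed share of the rise, so such growth alone does not show that larger rises came later. Rises under 1 on the log2 scale (1637 sequences) had a median departure of -0.05, rises of 1 to 2 (1014 sequences) -0.19, rises of 2 to 3 (172 sequences) -0.50 and rises of 3 or more (53 sequences) -0.70. Without the second 15 mM library these medians were 0.04, -0.09, -0.34 and -0.50, so the sign turned for the smallest rises and held for the others. With a pseudocount of 0.1 the median for rises of 3 or more was -0.57. On untransformed FPKM, where a straight line has another midpoint, 98.8% of the rises of 2 to 3 and 100% of those of 3 or more lay below it. Rises with equal log2 steps lie below that midpoint too, so these shares do not bear on when the rise came. The 30 mM libraries enter both the choice of these sequences and the midpoint, so the medians describe the shape of these rises and are not tested.

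Falls had, by their medians, the larger step above 15 mM. The 402 annotated sequences called lower at 30 mM were 164 to 431 with single libraries left out, and 164 to 233 without any one control, 30 mM replicate 1 or 30 mM replicate 3. Of the 402, 51 (12.7%) lay below the midpoint and the others above it, with a median departure of 0.25 (quartiles 0.13 and 0.38) and median steps of -0.21 and then -0.70. The median distance was 0.24, 0.12 and 0.39 in the 3 libraries of 15 mM. It was 0.16 to 0.19 under 3 other scalings and 0.18 to 0.31 with 1 of the 15 mM libraries left out. Falls under 1 (249 sequences) had a median departure of 0.22 and falls of 1 to 2 (142 sequences) of 0.30. On untransformed FPKM 14.5% and 26.1% of these lay below the midpoint, against 12% and 13.4% on the log2 scale. Counted by shape, 293 of the 402 were late falls, 49 early falls and 58 peaks, and 2030 of the 2876 risers were late rises, 785 early rises, 18 peaks and 43 troughs. Across all sequences 4425 (10%) were called higher and 775 (1.75%) lower at 30 mM than in controls.

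**Figure D2:**
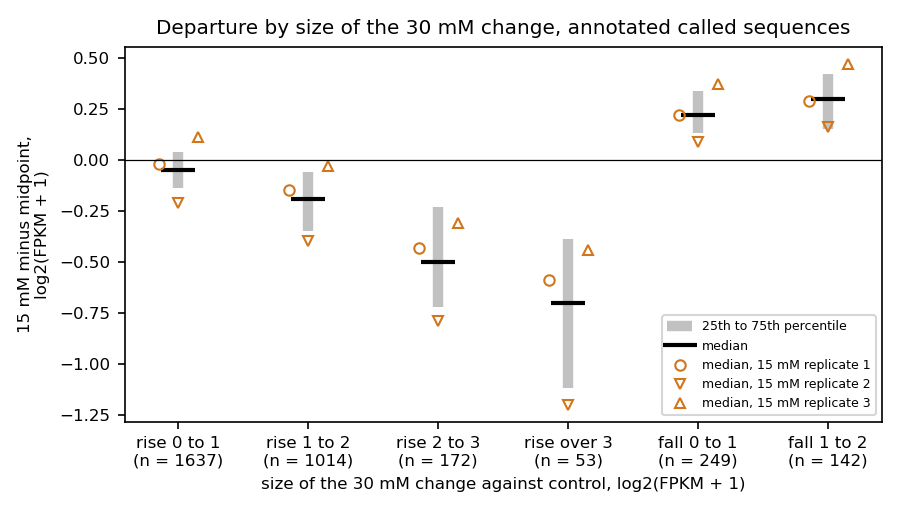
Departure of annotated sequences called at 30 mM against control (y, log2 scale), grouped by the size of that change (x, log2 scale, number of sequences in brackets); black lines are medians, grey bars span the quartiles and orange symbols are the medians of each 15 mM library. The median goes down to -0.70 for the largest rises, and falls have medians of 0.22 and 0.30.

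Late rises included enzymes of reduction and oxidation. An aldo/keto reductase, T15_3_TRINITY_DN17633_c0_g2, an enzyme type that turns aldehydes and ketones into alcohols, had 0.51, 0.28 and 0.40 FPKM at 0 mM, 1.66, 0.72 and 2.23 FPKM at 15 mM, and 137, 44.0 and 90.8 FPKM at 30 mM. All 30 mM libraries stood far above all others, and the 15 mM libraries stood just above the controls, where a straight line would have put 9.75 FPKM. Its departure of -2.13 ± 0.33 (SE, 95% interval -2.88 to -1.38, adjusted p = 0.123) missed the threshold. It was called in 2 of 21 alternatives, and its adjusted p ran from 0.0291 to 0.635. A further aldo/keto reductase, TCK_2_TRINITY_DN7931_c0_g3, had 4.08, 2.77 and 3.54 FPKM at 0 mM, 5.05, 3.61 and 8.95 FPKM at 15 mM, and 39.7, 12.4 and 30.6 FPKM at 30 mM, and a departure of -0.71 ± 0.36 (SE, 95% interval -1.52 to 0.10, adjusted p = 0.711). Together with zinc-type alcohol dehydrogenases the list of 43 sequences had a median departure of 0.01, with 2 members above and 1 below the midpoint at an unadjusted p under 0.05, so the late rise was a feature of single members. That median lay between -0.09 and 0.09 under other scalings and with libraries left out.

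Cytochromes P450, which oxidise a wide range of small molecules, held both late rises and peaks. T15_1_TRINITY_DN32985_c0_g1 had 1.10, 0.67 and 1.04 FPKM at 0 mM, 2.69, 1.45 and 3.19 FPKM at 15 mM, and 33.4, 49.9 and 29.6 FPKM at 30 mM. Its 15 mM libraries did not overlap either other dose but lay near the controls, with a departure of -1.34 ± 0.21 (SE, 95% interval -1.83 to -0.86, adjusted p = 0.129). The step between 15 and 30 mM was 3.49 ± 0.25 (SE, adjusted p = 1.0e-03). T15_1_TRINITY_DN15516_c0_g1 had a departure of -0.69 ± 0.28 (SE, adjusted p = 0.625) and averaged 8.25 ± 0.89 FPKM at 0 mM, 10.7 ± 2.23 FPKM at 15 mM and 40.0 ± 18.0 FPKM at 30 mM (SD, n = 3 each). The opposite shape appeared in TCK_1_TRINITY_DN77384_c0_g1, chosen after its values were seen, which had 16.3, 15.5 and 14.9 FPKM at 0 mM, 23.1, 23.6 and 25.6 FPKM at 15 mM, and 17.2, 13.3 and 15.7 FPKM at 30 mM. All 3 of its 15 mM libraries lay above the 6 others, at a departure of 0.61 ± 0.10 (SE, 95% interval 0.37 to 0.85, adjusted p = 0.153), while the 30 mM and control libraries overlapped. Over the 114 P450 sequences 13 were above and 10 below the midpoint at an unadjusted p under 0.05, with a median of 0.05 that turned to -0.03 after median-of-ratios rescaling and to -0.01 without the 4 most abundant sequences.

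Conjugating enzymes included late rises. Glutathione S-transferases attach glutathione to reactive compounds. T15_1_TRINITY_DN13646_c1_g1 had 1.68, 2.40 and 4.58 FPKM at 0 mM, 2.91, 3.17 and 5.23 FPKM at 15 mM, and 72.0, 34.2 and 71.3 FPKM at 30 mM. Its 15 mM and control libraries overlapped, and its step was 0.33 ± 0.36 (SE, adjusted p = 0.752) from 0 to 15 mM and 3.61 ± 0.36 (SE, adjusted p = 0.0025) from 15 to 30 mM. The departure was -1.64 ± 0.31 (SE, 95% interval -2.34 to -0.94, adjusted p = 0.184). T30_1_TRINITY_DN584_c0_g3 averaged 3.09 ± 0.75 FPKM at 0 mM, 6.56 ± 1.86 FPKM at 15 mM and 33.3 ± 11.4 FPKM at 30 mM (SD, n = 3 each), a departure of -0.64 ± 0.25 (SE, adjusted p = 0.6). No member of the 43 was above the midpoint at an unadjusted p under 0.05 and 5 were below it, against 4.32% and 2.84% of annotated sequences. The median of the list was -0.04, with library medians of 0.04, -0.44 and 0.19, and with 15 mM replicates 1, 2 and 3 left out in turn it was -0.12, 0.11 and -0.19.

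UDP-glycosyltransferases, which add sugars to phenolics and hormones, were less uniform. T30_3_TRINITY_DN5513_c0_g2 had 1.38, 0.69 and 1.47 FPKM at 0 mM, 8.02, 2.58 and 8.55 FPKM at 15 mM, and 107, 51.1 and 131 FPKM at 30 mM. Every 15 mM library was above every control and below every 30 mM library, but by less in the second, and the departure was -1.05 ± 0.38 (SE, 95% interval -1.91 to -0.19, adjusted p = 0.566). T15_3_TRINITY_DN31294_c0_g1 showed an early fall, with 24.3, 38.6 and 24.1 FPKM at 0 mM, 7.39, 6.49 and 16.2 FPKM at 15 mM, and 18.7, 6.20 and 5.06 FPKM at 30 mM. Its 15 and 30 mM libraries overlapped and lay below all controls. The departure was -0.70 ± 0.41 (SE, 95% interval -1.62 to 0.22, adjusted p = 0.752). Of 77 members 8 were above and 7 below the midpoint at an unadjusted p under 0.05, and the median of -0.07 became -0.08, 0.08 and -0.15 with 15 mM replicates 1, 2 and 3 left out in turn.

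Transport showed the same mix. ABC transporters move conjugates and hormones across membranes with the energy of ATP. TCK_2_TRINITY_DN8645_c0_g1 had 2.51, 2.75 and 2.59 FPKM at 0 mM, 4.68, 3.65 and 6.27 FPKM at 15 mM, and 43.1, 27.3 and 26.5 FPKM at 30 mM. The 30 mM libraries were well apart from the others, and the 15 mM libraries were all above the controls by a small margin, giving a departure of -0.91 ± 0.19 (SE, 95% interval -1.34 to -0.48, adjusted p = 0.211). T15_3_TRINITY_DN8672_c0_g1 had a departure of -0.53 ± 0.20 (SE, adjusted p = 0.585). Among 133 ABC and MATE transporters the median departure was 0.01 (between -0.08 and 0.11 under other scalings and with libraries left out), with 5 members above and 6 below the midpoint at an unadjusted p under 0.05. Iron-dependent dioxygenases that use 2-oxoglutarate, a family of hormone and specialised metabolism, had a median of 0.04 over 55 members (-0.06 to 0.15), with 0 above and 4 below by limma at an unadjusted p under 0.05. Their member with the largest departure at a mean of at least 5 FPKM, T15_3_TRINITY_DN3169_c0_g1, fell: it had 26.2, 26.9 and 28.3 FPKM at 0 mM, 18.6, 15.0 and 23.9 FPKM at 15 mM, and 8.08, 8.18 and 4.29 FPKM at 30 mM. The 3 doses did not overlap, and the departure of 0.44 ± 0.20 (SE, 95% interval -0.02 to 0.90, adjusted p = 0.684) was that of a late fall.

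**Figure D3:**
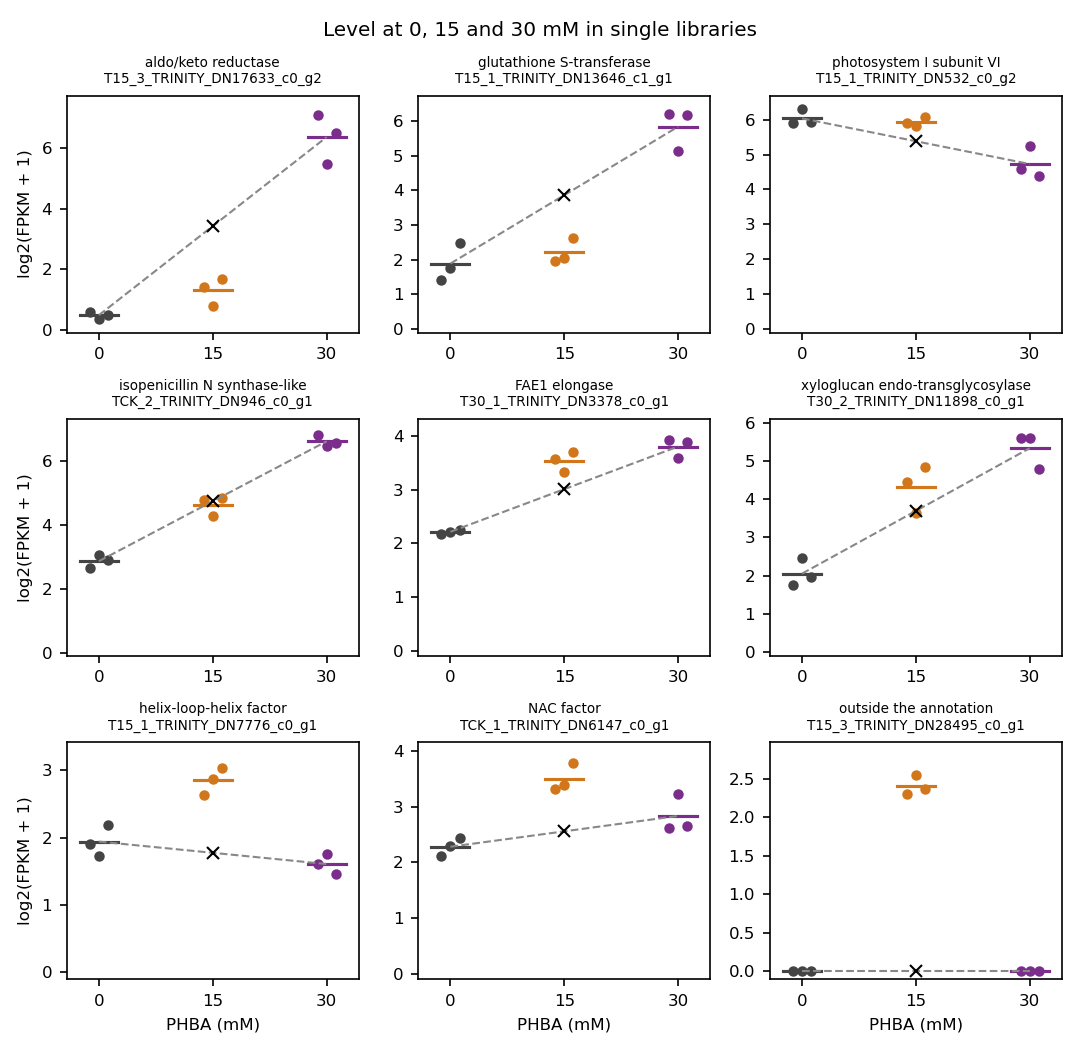
Level in each library (points, log2(FPKM + 1)) of 9 sequences at 0, 15 and 30 mM PHBA; short bars are dose means, the dashed line joins the 0 and 30 mM means and the cross is the midpoint. The aldo/keto reductase and glutathione S-transferase lie below the line at 15 mM, the isopenicillin N synthase-like sequence lies on it, and the helix-loop-helix factor, the NAC factor and the sequence outside the annotation lie above both ends.

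WRKY factors, regulators of defence and stress genes, rose in 17 of 40 members between 15 and 30 mM and in 3 between 0 and 15 mM, with 0 falls called by limma. With single libraries left out the 17 became 13 to 17 and the 3 became 0 to 4, with 0 without either of 15 mM replicates 1 and 3 or of control replicates 1 and 2, and 1 without either of 30 mM replicates 1 and 2 or without control replicate 3. Over all sequences 1066 (2.41%) were called higher and 305 (0.69%) lower at 30 mM than at 15 mM, and 37 (0.0837%) higher and 7 (0.0158%) lower at 15 mM than in controls. The median WRKY step was 0.47 between 0 and 15 mM and 0.80 between 15 and 30 mM, against 0.19 and 0.11 over all annotated sequences. Of the members, 10 lay below and 3 above the midpoint at an unadjusted p under 0.05, against 2.84% and 4.32% of annotated sequences. T15_1_TRINITY_DN8139_c0_g1 had 0.28, 0.51 and 0.27 FPKM at 0 mM, 2.41, 1.14 and 5.13 FPKM at 15 mM, and 97.1, 46.6 and 80.3 FPKM at 30 mM. It was already above all controls in each 15 mM library, yet the step to 30 mM was 4.35 ± 0.38 (SE, adjusted p = 0.00184) and the departure -1.48 ± 0.33 (SE, 95% interval -2.22 to -0.73, adjusted p = 0.255). T15_2_TRINITY_DN31591_c0_g1 had 1.12, 0.38 and 0.74 FPKM at 0 mM, 3.79, 2.05 and 1.93 FPKM at 15 mM, and 39.8, 36.2 and 49.2 FPKM at 30 mM, and a departure of -1.29 ± 0.20 (SE, 95% interval -1.75 to -0.83, adjusted p = 0.123) that passed the threshold with a pseudocount of 5 (adjusted p = 0.032) and on square roots (adjusted p = 0.0454), within a range of 0.032 to 0.458. The median of the list was -0.07 and became -0.10, 0.01 and -0.12 with 15 mM replicates 1, 2 and 3 left out in turn.

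Defence proteins, stress chaperones and calcium sensors had list medians below 0. Pathogenesis-related proteins and protease inhibitors, which act against microbes and insects, had a median departure of -0.26 over 33 members (-0.34 to -0.19 under other scalings and with 15 mM libraries left out). TCK_1_TRINITY_DN79849_c0_g1, of the cysteine-rich secretory family, averaged 2.06 ± 1.12 FPKM at 0 mM, 2.09 ± 1.06 FPKM at 15 mM and 14.4 ± 10.1 FPKM at 30 mM, and T30_1_TRINITY_DN5073_c0_g2, a potato inhibitor I protein, averaged 0.04 ± 0.08 FPKM at 0 mM, 0.89 ± 0.67 FPKM at 15 mM and 25.3 ± 37.3 FPKM at 30 mM (SD, n = 3 each). Both spreads at 30 mM were wide, and the departures were -1.01 ± 0.52 (SE, adjusted p = 0.719) and -0.94 ± 0.78 (SE, adjusted p = 0.842). Class III haem peroxidases, secreted enzymes that cross-link cell walls and make or use hydrogen peroxide, had a median of -0.23 (-0.34 to -0.24 in the other settings) over 28 members, 6 below and 2 above at an unadjusted p under 0.05, with steps of 0.25 and 0.97. Their most departing members at a mean of at least 5 FPKM pointed in opposite directions. T15_3_TRINITY_DN687_c0_g2 had a departure of -0.77 ± 0.34 (SE, adjusted p = 0.666) and T15_2_TRINITY_DN4754_c0_g1 one of 0.40 ± 0.17 (SE, adjusted p = 0.643).

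Heat shock proteins and factors, which keep proteins folded, had a median of -0.08 over 63 members, negative in each setting run (-0.19 to -0.02), with 2 members on each side at an unadjusted p under 0.05. T30_3_TRINITY_DN65850_c0_g1, a small heat shock protein, had 0.34, 0.88 and 0.44 FPKM at 0 mM, 1.05, 0.26 and 2.24 FPKM at 15 mM, and 39.4, 3.34 and 16.2 FPKM at 30 mM. Its 30 mM libraries were high in replicates 1 and 3 and low in replicate 2, so the departure of -1.22 ± 0.61 (SE, 95% interval -2.59 to 0.16, adjusted p = 0.708) was imprecise. T30_1_TRINITY_DN1021_c0_g6, an Hsp90 protein, had the same uneven 30 mM libraries and a departure of -1.15 ± 0.80 (SE, adjusted p = 0.793). EF-hand proteins, which sense calcium, had 10 of 85 members below and 1 above the midpoint at an unadjusted p under 0.05. The shares over annotated sequences were 2.84% and 4.32%. The median of the list was -0.06 and became -0.07, 0.04 and -0.12 with 15 mM replicates 1, 2 and 3 left out in turn. TCK_3_TRINITY_DN14861_c0_g1, which joins an EF hand to a pyridine nucleotide oxidoreductase domain, a pairing found in NAD(P)H dehydrogenases of plant mitochondria, had 0.82, 0.85 and 1.31 FPKM at 0 mM, 1.83, 0.97 and 2.63 FPKM at 15 mM, and 24.0, 9.16 and 20.6 FPKM at 30 mM. The controls and 15 mM libraries overlapped and the 30 mM libraries stood above both, with a departure of -1.12 ± 0.30 (SE, 95% interval -1.79 to -0.44, adjusted p = 0.376). T15_3_TRINITY_DN6994_c0_g1, with EF-hand domains alone, had a departure of -0.83 ± 0.25 (SE, adjusted p = 0.448).

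The jasmonate pathway, which signals wounding and attack, had a median departure of 0.03 over 20 members (-0.02 to 0.09), with 2 members below and 0 above the midpoint by limma at an unadjusted p under 0.05. T15_1_TRINITY_DN11231_c0_g1, with the tify and CCT motifs of jasmonate repressors, had 3.86, 2.59 and 2.14 FPKM at 0 mM, 3.82, 5.30 and 3.51 FPKM at 15 mM, and 22.2, 12.7 and 37.4 FPKM at 30 mM, and a departure of -0.86 ± 0.30 (SE, 95% interval -1.53 to -0.18, adjusted p = 0.541). T15_2_TRINITY_DN6564_c0_g1, a lipoxygenase of the family that oxidises fatty acids ahead of jasmonate, was level between controls and 15 mM and called higher at 30 mM than at 15 mM, by 1.27 ± 0.27 (SE, adjusted p = 0.0439). Its departure was -0.69 ± 0.24 (SE, adjusted p = 0.535). Sugar transport and starch had a median of 0.06 over 54 members (-0.03 to 0.14). Late rises there included a sugar transporter, T15_3_TRINITY_DN9268_c0_g1, which had 3.06, 2.45 and 3.44 FPKM at 0 mM, 7.51, 5.83 and 6.20 FPKM at 15 mM, and 37.1, 19.8 and 41.0 FPKM at 30 mM, with non-overlapping doses and a departure of -0.59 ± 0.22 (SE, 95% interval -1.09 to -0.10, adjusted p = 0.577). T15_3_TRINITY_DN3657_c0_g1, a sucrose synthase that splits sucrose for use in sink cells, had a departure of -0.52 ± 0.24 (SE, adjusted p = 0.691).

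Proteins of synthesis and turnover lay a little below the midpoint with the whole set of 15 mM libraries, further below it without the third, and not below it without the second. Ribosomal proteins had a median of -0.10 over 198 members, and -0.13, 0.01 and -0.19 with 15 mM replicates 1, 2 and 3 left out in turn. Their library medians were -0.04, -0.33 and 0.08. T30_1_TRINITY_DN149_c0_g4, ribosomal protein L6e, averaged 22.1 ± 2.37 FPKM at 0 mM, 23.5 ± 0.80 FPKM at 15 mM and 46.5 ± 14.9 FPKM at 30 mM (SD, n = 3 each), and its departure was -0.41 ± 0.17 (SE, adjusted p = 0.636). Proteasome subunits had -0.09 over 33 members, and -0.08, 0.08 and -0.23 in the same order, with 0 members past an unadjusted p of 0.05 by limma. Core histones and cyclins had 0.05 over 38 members (-0.06 to 0.11).

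Light harvesting had its larger fall between 15 and 30 mM. Of 24 antenna sequences 9 were called lower at 30 mM than at 15 mM, against 0.69% of all sequences, and 19 lower at 30 mM than in controls, against 1.75%. At 15 mM against controls 0 were called lower by limma, where the share over all sequences was 0.0158%. With single libraries left out, the 9 became 0 to 15, lowest without 15 mM replicate 1 and highest without 30 mM replicate 2. It was 1 and 2 without 30 mM replicates 3 and 1, 4 without 15 mM replicate 3 or control replicate 3, and 5 without 15 mM replicate 2. The 19 became 10 to 20, with 10 to 12 without 30 mM replicate 1, 30 mM replicate 3 or control replicate 2. The 24 chlorophyll a/b-binding antenna proteins, which collect light for both photosystems, had a median departure of 0.37. Of the 24, 22 lay above the midpoint, against 7893 of 13634 annotated sequences. At an unadjusted p under 0.05 by limma 6 lay above it and 0 below. Their median step was -0.27 between 0 and 15 mM and -1.06 between 15 and 30 mM. Summed over the list they reached 4900 to 7560 FPKM in controls, 4160 to 5680 FPKM at 15 mM and 1820 to 2910 FPKM at 30 mM, with overlap between 15 mM and controls alone. TCK_3_TRINITY_DN13405_c0_g1 had 739.9, 1263 and 894 FPKM at 0 mM, 679, 647 and 866 FPKM at 15 mM, and 236, 368 and 204 FPKM at 30 mM. Its 30 mM libraries were below all others and its 15 mM libraries overlapped the controls, with a departure of 0.55 ± 0.25 (SE, 95% interval -0.01 to 1.11, adjusted p = 0.675). T15_3_TRINITY_DN6816_c0_g1 had the same order and a departure of 0.52 ± 0.23 (SE, adjusted p = 0.664). Fewer chloroplast-rich cells and less of these RNAs per cell cannot be told apart in leaf RNA.

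Photosystem subunits followed, with a median departure of 0.27 over 35 members, 32 of them above the midpoint, and steps of -0.08 and -0.59. Of all annotated sequences 7893 of 13634 lay above the midpoint. T15_1_TRINITY_DN532_c0_g2, subunit VI of the photosystem I reaction centre, had 58.5, 77.5 and 59.6 FPKM at 0 mM, 58.3, 55.5 and 66.5 FPKM at 15 mM, and 22.8, 36.6 and 19.8 FPKM at 30 mM. The 15 mM libraries lay within the range of the controls or just below it, and the step from 15 to 30 mM was -1.20 ± 0.22 (SE, adjusted p = 0.0248), with a departure of 0.55 ± 0.19 (SE, 95% interval 0.11 to 0.98, adjusted p = 0.55). T30_3_TRINITY_DN9365_c0_g1, PsaO, had a departure of 0.46 ± 0.22 (SE, adjusted p = 0.7). Calvin cycle enzymes, which fix carbon, had a median of 0.14 over 16 members, 14 above the midpoint, and 0 at an unadjusted p under 0.05 by limma. T30_1_TRINITY_DN13143_c0_g2, phosphoribulokinase, averaged 293 ± 28.9 FPKM at 0 mM, 302 ± 52.3 FPKM at 15 mM and 213 ± 30.1 FPKM at 30 mM (SD, n = 3 each), a departure of 0.27 ± 0.16 (SE, adjusted p = 0.757). Library medians were 0.34, 0.16 and 0.61 for the antenna, 0.29, 0.02 and 0.47 for the photosystems and 0.15, -0.10 and 0.32 for the Calvin cycle. All 3 list medians were positive under each scaling run and without any one 15 mM library (antenna 0.25 to 0.49, photosystems 0.16 to 0.36, Calvin cycle 0.04 to 0.27).

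**Figure D4:**
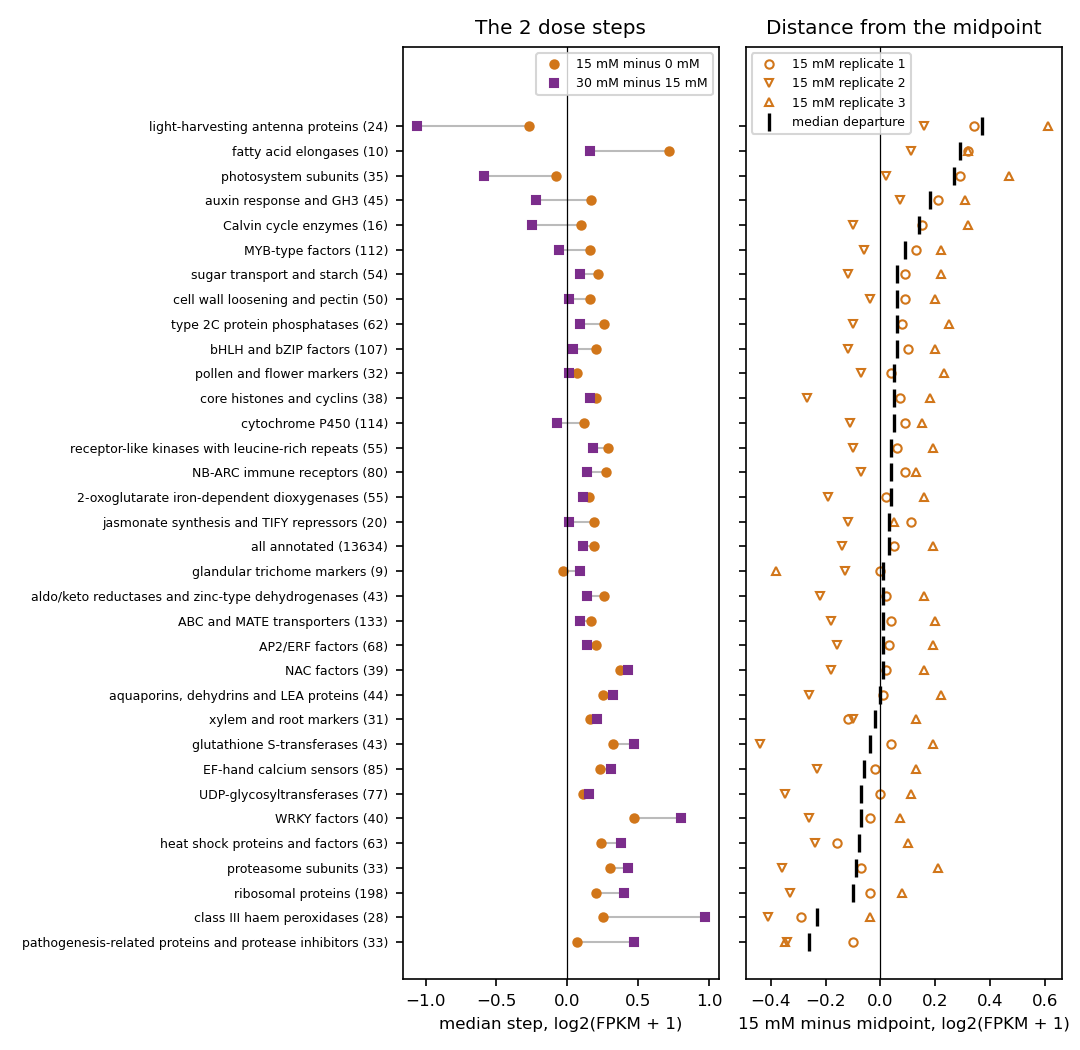
Left, median step of each gene list (rows, number of members in brackets) from 0 to 15 mM and from 15 to 30 mM; right, median distance of each 15 mM library from the midpoint and the median departure (x, log2(FPKM + 1)). Antenna proteins have steps of -0.27 and -1.06, fatty acid elongases 0.72 and 0.16, and replicate 2 lies left of replicate 1 in most lists.

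Some rises were graded. In 19 sequences (0.043%), 12 of them annotated, 15 mM was called above control and 30 mM above 15 mM. The doses did not overlap in any of the 19, an order that being called at both steps favours. Their departures ran from -0.52 to 0.63 with a median of 0.02 and adjusted p of 0.211 to 0.991, and 17 of the 19 had a 95% interval that includes 0. The remaining 2 were outside the annotation, and their departures were not called either. The count of graded rises depended on single libraries: it was 40 without 15 mM replicate 2, 11, 9 and 2 without 30 mM replicates 3, 2 and 1, 1 without control replicate 3, and 0 by limma without either of control replicates 1 and 2 or of 15 mM replicates 1 and 3. It also depended on scale and filter, with 0 by limma with a pseudocount of 5, on square roots, on untransformed FPKM and without a filter. It was 43 with a pseudocount of 0.1, 117 at a mean of at least 5 FPKM and 204 with array weights. The mirror image, a fall called at both steps, was found in 0 sequences by limma (81 at unadjusted p under 0.05 in both steps, against 1052 such rises). The examples that follow were chosen after their values were seen. TCK_2_TRINITY_DN946_c0_g1, an isopenicillin N synthase-like protein, a fold of oxidases that use iron, had 5.21, 7.34 and 6.41 FPKM at 0 mM, 26.2, 18.3 and 27.8 FPKM at 15 mM, and 111, 88.0 and 92.8 FPKM at 30 mM, a departure of -0.11 ± 0.16 (SE, 95% interval -0.47 to 0.26, adjusted p = 0.94). T15_1_TRINITY_DN58557_c1_g1, an alpha/beta hydrolase, had 3.81, 4.21 and 4.62 FPKM at 0 mM, 22.0, 12.6 and 22.2 FPKM at 15 mM, and 56.0, 45.7 and 62.8 FPKM at 30 mM, a departure of 0.19 ± 0.19 (SE, 95% interval -0.24 to 0.62, adjusted p = 0.881). Equal steps on a log scale mean equal multiples: its mean FPKM at 15 mM was below the arithmetic mean of the other doses, 29.5 FPKM.

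T30_3_TRINITY_DN8536_c0_g1, an enoyl reductase of the kind used in fatty acid synthesis, had 5.16, 4.70 and 6.42 FPKM at 0 mM, 13.6, 10.7 and 12.7 FPKM at 15 mM, and 30.6, 33.7 and 30.7 FPKM at 30 mM, with tight groups and a departure of -0.12 ± 0.12 (SE, 95% interval -0.39 to 0.15, adjusted p = 0.879). T30_2_TRINITY_DN299_c0_g1, an NB-ARC protein of the intracellular immune receptor family, had 2.55, 3.46 and 3.30 FPKM at 0 mM, 8.80, 7.46 and 8.70 FPKM at 15 mM, and 18.6, 16.6 and 20.3 FPKM at 30 mM, a departure of 0.06 ± 0.12 (SE, 95% interval -0.20 to 0.33, adjusted p = 0.957). TCK_3_TRINITY_DN6324_c0_g1 was a WRKY factor that rose at both steps, by 1.49 ± 0.20 (SE, adjusted p = 0.0488) and then by 2.27 ± 0.20 (SE, adjusted p = 0.00184). The first step of the late WRKY sequence T15_1_TRINITY_DN8139_c0_g1 was near it in size but not called, at 1.40 ± 0.38 (SE, limma adjusted p = 0.253). The departure of TCK_3_TRINITY_DN6324_c0_g1 was -0.39 ± 0.18 (SE, 95% interval -0.79 to 0.01, adjusted p = 0.672). The wider NB-ARC list had a median departure of 0.04 over 80 members (0.00 to 0.09), with 4 above and 2 below the midpoint at an unadjusted p under 0.05, and its most departing member at a mean of at least 5 FPKM, T15_2_TRINITY_DN9551_c0_g1, lay above it by 0.79 ± 0.29 (SE, adjusted p = 0.567).

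Early rises, with most of the change by 15 mM, were found in some wax and cell wall genes. FAE1-type elongases build the very long fatty acids of surface waxes. T15_3_TRINITY_DN17739_c0_g1 had 3.84, 3.86 and 4.25 FPKM at 0 mM, 12.6, 8.90 and 11.8 FPKM at 15 mM, and 10.6, 14.0 and 9.35 FPKM at 30 mM. All treated libraries were above all controls and the treated doses overlapped. The step to 15 mM was 1.27 ± 0.17 (SE, adjusted p = 0.0488), the step from 15 to 30 mM 0.02 ± 0.17 (SE, adjusted p = 0.975) and the departure 0.62 ± 0.15 (SE, 95% interval 0.29 to 0.96, adjusted p = 0.302). T30_1_TRINITY_DN3378_c0_g1 had 3.54, 3.65 and 3.75 FPKM at 0 mM, 10.9, 9.04 and 12.0 FPKM at 15 mM, and 14.3, 11.1 and 13.9 FPKM at 30 mM, with a first step of 1.32 ± 0.14 (SE, adjusted p = 0.0249) and a departure of 0.52 ± 0.12 (SE, 95% interval 0.25 to 0.80, adjusted p = 0.274). Over the 10 elongases the median departure was 0.29 (0.22 to 0.35 under other scalings and with 15 mM libraries left out), with 4 above and 0 below the midpoint by limma at an unadjusted p under 0.05 and median steps of 0.72 and then 0.16. Library medians were 0.32, 0.11 and 0.32. A positive departure was found in 6 of the 10 and a negative one in 4 (quartiles -0.10 and 0.47), against 7893 positive of 13634 annotated sequences.

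Cell wall loosening proteins let walls extend. T30_2_TRINITY_DN11898_c0_g1, a xyloglucan endo-transglycosylase, which cuts and rejoins the xyloglucan chains of the wall, had 2.35, 4.47 and 2.88 FPKM at 0 mM, 20.8, 11.6 and 27.6 FPKM at 15 mM, and 47.5, 47.8 and 26.8 FPKM at 30 mM. All 15 mM libraries were above all controls and 1 overlapped the 30 mM libraries. The departure was 0.62 ± 0.30 (SE, 95% interval -0.05 to 1.29, adjusted p = 0.695), and on untransformed FPKM it turned negative (-1.99). T15_3_TRINITY_DN23322_c0_g1, of the same family, had a departure of 0.48 ± 0.29 (SE, adjusted p = 0.757). T30_3_TRINITY_DN3393_c1_g1, whose annotation is the pollen allergen domain that expansins carry, had 4.16, 2.94 and 5.24 FPKM at 0 mM, 16.9, 12.6 and 21.6 FPKM at 15 mM, and 18.8, 20.5 and 17.4 FPKM at 30 mM, a first step of 1.81 ± 0.22 (SE, adjusted p = 0.0286) and a departure of 0.82 ± 0.19 (SE, 95% interval 0.39 to 1.24, adjusted p = 0.272). TCK_3_TRINITY_DN74336_c0_g1, with the same domain, had a departure of 0.47 ± 0.17 (SE, adjusted p = 0.579). The list of 50 cell wall loosening and pectin sequences had a median of 0.06 (0.00 to 0.15), so the early rises were those of single members. A leucine-rich repeat receptor kinase, T15_1_TRINITY_DN3842_c0_g1, had 5.52, 6.04 and 6.84 FPKM at 0 mM, 14.4, 12.8 and 14.6 FPKM at 15 mM, and 13.0, 18.1 and 15.4 FPKM at 30 mM, a first step of 1.07 ± 0.14 (SE, adjusted p = 0.0443) and a departure of 0.47 ± 0.12 (SE, 95% interval 0.19 to 0.75, adjusted p = 0.366). Leucine-rich repeat kinases read signals at the cell surface. Over 55 of them 7 lay above and 5 below the midpoint at an unadjusted p under 0.05, with a median of 0.04 (-0.03 to 0.11). T15_3_TRINITY_DN6873_c0_g1, the other named member, lay above the midpoint by 0.52 ± 0.17 (SE, adjusted p = 0.511).

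Turns at 15 mM were looked for in sequences that differed from both other doses in 1 direction. The comparisons share the 15 mM libraries. As called, there were 10 peaks (0.0226%), the same 10 sequences present only at 15 mM, and 0 troughs, while at unadjusted p under 0.05 in both comparisons there were 533 peaks, 89 annotated, and 109 troughs, 10 annotated. All 3 of the 15 mM libraries lay above all 6 others in 206 annotated sequences (1.51%) and below them in 39 (0.286%), and among all sequences in 747 (1.69%) and 181 (0.409%). Restricting the test to 4548 more abundant sequences (mean of 5 FPKM or more) gave 6 called peaks, all annotated, and 0 called departures. Without 15 mM replicate 2 there were 19 called peaks, and array weights gave 83 peaks and 4 troughs.

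Transcription factors with a peak shape are described here because factor families were among the gene lists. Their share among annotated peaks was not tested. No annotated peak was called over all sequences tested. Among the 6 peaks called at a mean of 5 FPKM or more, the largest departures were not those of factors. T30_3_TRINITY_DN13678_c0_g1 had 1.89 ± 0.42 (SE) and TCK_1_TRINITY_DN2287_c0_g1 had 1.29 ± 0.23 (SE), and neither is described as a factor. T15_1_TRINITY_DN7776_c0_g1, a helix-loop-helix factor with the smallest adjusted p of all annotated sequences, had 2.74, 2.31 and 3.58 FPKM at 0 mM, 5.23, 6.32 and 7.23 FPKM at 15 mM, and 2.04, 2.39 and 1.75 FPKM at 30 mM. Every 15 mM library was above every other library, and the departure was 1.08 ± 0.15 (SE, 95% interval 0.74 to 1.41, adjusted p = 0.0908). It was named after its values were seen. It passed with array weights, which lean on 15 mM replicate 1 (limma adjusted p = 0.0463, within 0.0463 to 0.295 over 20 alternatives). T30_3_TRINITY_DN6505_c0_g4, of the same family, had 7.45, 5.72 and 7.84 FPKM at 0 mM, 12.6, 10.6 and 14.6 FPKM at 15 mM, and 8.16, 6.17 and 6.86 FPKM at 30 mM, the same order of libraries and a departure of 0.76 ± 0.14 (SE, 95% interval 0.43 to 1.08, adjusted p = 0.184). T30_1_TRINITY_DN2631_c0_g1, with that domain by superfamily, combined a small first step of 0.24 ± 0.17 (SE, adjusted p = 0.627) with a fall of -1.14 ± 0.17 (SE, adjusted p = 0.0103), a departure of 0.69 ± 0.14 (SE, adjusted p = 0.212). Over 107 helix-loop-helix and bZIP factors 11 lay above and 3 below the midpoint at an unadjusted p under 0.05. Their median was 0.06 (0.00 to 0.16).

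TCK_1_TRINITY_DN6147_c0_g1, a NAC factor of the family that governs senescence, development and stress, had 3.31, 3.93 and 4.40 FPKM at 0 mM, 8.96, 9.49 and 12.7 FPKM at 15 mM, and 5.12, 8.41 and 5.31 FPKM at 30 mM. All 15 mM libraries were above all others, with a departure of 0.94 ± 0.17 (SE, 95% interval 0.54 to 1.33, adjusted p = 0.184). The 39 NAC factors had steps of 0.37 and 0.43 and a median departure of 0.01 (-0.09 to 0.06), with 3 above and 0 below by limma at an unadjusted p under 0.05. T15_1_TRINITY_DN33365_c0_g1, an AP2 factor of the ethylene and stress response family, had 18.7, 19.1 and 19.7 FPKM at 0 mM, 25.7, 23.1 and 33.5 FPKM at 15 mM, and 12.7, 19.2 and 5.99 FPKM at 30 mM, a departure of 0.82 ± 0.29 (SE, 95% interval 0.17 to 1.47, adjusted p = 0.546). Its 15 mM libraries were the highest, and the 30 mM libraries were spread widely. T30_1_TRINITY_DN871_c1_g1, also AP2, had a departure of 0.67 ± 0.14 (SE, adjusted p = 0.211). AP2 factors as a list had 7 above and 8 below the midpoint at an unadjusted p under 0.05 of 68 members, and a median of 0.01 (-0.04 to 0.10).

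T30_1_TRINITY_DN11655_c0_g1, a MYB-type factor, had 13.3, 12.2 and 21.0 FPKM at 0 mM, 30.4, 29.8 and 38.0 FPKM at 15 mM, and 23.4, 19.8 and 22.7 FPKM at 30 mM. All 15 mM libraries were above all others, whose ranges overlapped, with a departure of 0.80 ± 0.17 (SE, 95% interval 0.41 to 1.19, adjusted p = 0.23). TCK_3_TRINITY_DN79797_c0_g1 had a departure of 0.52 ± 0.18 (SE, adjusted p = 0.532). Of 112 MYB-type sequences 16 were above and 3 below the midpoint at an unadjusted p under 0.05, against 4.32% and 2.84% of annotated sequences. A positive departure was found in 81, against 7893 of 13634 annotated sequences. The median was 0.09 (0.03 to 0.18).

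Auxin response genes, which act in growth, had a list median above that of all annotated sequences (0.03). Of 45 members 35 had a positive departure, against 7893 of 13634 annotated sequences. At an unadjusted p under 0.05, 12 lay above and 1 below the midpoint, against 4.32% and 2.84% of annotated sequences. In 5 members all 15 mM libraries were above all others, an order seen in 1.51% of annotated sequences. The median was 0.18 (0.12 to 0.28 in the other settings run), with library medians of 0.21, 0.07 and 0.31 and steps of 0.17 and -0.22. T30_3_TRINITY_DN383_c0_g3, a GH3 protein, of enzymes that couple auxin or jasmonate to amino acids, had 8.82, 7.29 and 10.4 FPKM at 0 mM, 12.3, 11.0 and 14.9 FPKM at 15 mM, and 6.36, 8.84 and 6.92 FPKM at 30 mM. Every 15 mM library was above every other, and the departure was 0.60 ± 0.15 (SE, 95% interval 0.26 to 0.94, adjusted p = 0.334). T15_3_TRINITY_DN38035_c0_g1, an auxin-responsive protein, had 2.57, 1.63 and 5.87 FPKM at 0 mM, 14.6, 6.64 and 17.1 FPKM at 15 mM, and 10.8, 9.94 and 9.73 FPKM at 30 mM. Its 15 mM libraries spanned the range of the 30 mM ones and lay above all controls, with a departure of 0.95 ± 0.34 (SE, 95% interval 0.19 to 1.71, adjusted p = 0.557).

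Water-related and phosphatase genes stayed near the midpoint as lists. Aquaporins, dehydrins and LEA proteins, which carry water or protect dry cells, had a median of 0.00 over 44 members (-0.13 to 0.11). T30_3_TRINITY_DN3110_c0_g1, an aquaporin, had 3.58, 3.67 and 3.75 FPKM at 0 mM, 10.9, 6.82 and 9.64 FPKM at 15 mM, and 7.16, 8.58 and 6.05 FPKM at 30 mM, a departure of 0.69 ± 0.15 (SE, 95% interval 0.34 to 1.04, adjusted p = 0.257). T15_3_TRINITY_DN21507_c0_g1, a LEA protein, had a departure of 0.67 ± 0.18 (SE, adjusted p = 0.394). Type 2C protein phosphatases, of which some hold back abscisic acid signals, had a median of 0.06 over 62 members (-0.02 to 0.14), with 5 above and 2 below at an unadjusted p under 0.05.

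Troughs, with the lowest level at 15 mM, were fewer than peaks among annotated sequences. TCK_2_TRINITY_DN4228_c0_g1, an expansin-like protein with the pollen allergen domain, had 1.15, 1.87 and 1.27 FPKM at 0 mM, 0.57, 0.52 and 0.79 FPKM at 15 mM, and 5.17, 3.05 and 4.26 FPKM at 30 mM. All 15 mM libraries were below all others and all 30 mM libraries above, with a departure of -1.11 ± 0.17 (SE, 95% interval -1.49 to -0.73, adjusted p = 0.122). It was named after its values were seen. Array weights, which lean on 15 mM replicate 1, called it (limma adjusted p = 0.036, within 0.036 to 0.329 over 20 alternatives). Its direction is opposite to that of the other sequences with this domain given above.

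Markers of leaf were abundant and those of other organs low in all doses. Photosystem subunits summed to 17900 to 22700 FPKM in controls, 17100 to 31200 FPKM at 15 mM and 16000 to 21600 FPKM at 30 mM, so their summed level, carried by a few abundant sequences, overlapped between doses. The antenna proteins did not hold level: they summed to 4900 to 7560 FPKM in controls, 4160 to 5680 FPKM at 15 mM and 1820 to 2910 FPKM at 30 mM. Glandular trichome markers (9 of 14 sequences kept) summed to 5.38 to 7.17 FPKM in controls, 4.82 to 6.67 FPKM at 15 mM and 5.69 to 8.67 FPKM at 30 mM, with a median departure of 0.01 (-0.10 to 0.01 in the other settings) and 0 members past an unadjusted p of 0.05 by limma. Xylem and root markers (31 of 36 kept) summed to 81.2 to 97.0 FPKM in controls, 98.6 to 141 FPKM at 15 mM and 108 to 141 FPKM at 30 mM, with a median departure of -0.02 (-0.09 to 0.07). Among them T15_3_TRINITY_DN56758_c0_g1, a fasciclin protein of the cell surface, had a departure of 0.66 ± 0.26 (SE, adjusted p = 0.611). Pollen and flower markers (32 of 34 kept) summed to 80.9 to 93.1 FPKM in controls, 93.7 to 127 FPKM at 15 mM and 98.6 to 119 FPKM at 30 mM, with a median of 0.05 (-0.02 to 0.12). That list holds the expansin-like sequences given above, since their domain is named for pollen allergens. The summed FPKM of the xylem and pollen lists was thus higher in treated leaves than in controls. Their median steps from 0 to 15 mM were 0.16 and 0.07, against 0.19 over all annotated sequences. The part of these lists in the early rises was not tested.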

How the data were processed

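Leaf RNA of 9 libraries (3 doses of PHBA, 3 libraries each) was sequenced. The authors deposited FPKM values with 2 decimals for 82125 sequences. Per the file headers and values, each sequence is named for the Trinity assembler and for 1 library. FastQC 0.11.5, Trimmomatic 0.36, DESeq and RSEM stand in the submitters' processing notes without a role. How reads were mapped and assemblies merged is not given in the sources used here. Another deposited file describes protein domains (14831 sequences, 14720 of them in the table). It holds no tomato gene names, positions or sequences, and 0 names matched the RefSeq gene list. Several sequences may be pieces or near-identical copies of 1 gene, between which reads can be split.

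Values were used as deposited. Sequences with 0.5 FPKM or more in at least 3 libraries were fitted as log2(FPKM + 1) with limma 3.58.1 in R 4.3.3, 1 coefficient per dose, empirical Bayes with a mean trend and 6 residual degrees of freedom. Contrasts were two-sided, with Benjamini-Hochberg adjustment over all 44203 sequences and a threshold of 0.05. Fold changes on this scale understate those of low sequences. FPKM hold no counts, so no counting interval is given; relative depth came from the value of 1 read in rare sequences. The fit was tested on simulated data.

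Members and the 33 gene lists (words matched in the Pfam or InterPro text) were chosen with earlier results of these data known, and the words were tightened after the annotation had been seen; no list was tested. Named by rule are, per list, up to 2 members with a mean of at least 5 FPKM and the largest departures, and the largest such departure outside the annotation in each direction; called or not, their p is given. Alternatives were pseudocounts of 0.1 and 5, square-root and untransformed values, other filters, 3 scalings, array weights, no mean trend, a replicate block and leaving out each library. Same-numbered libraries of different doses did not deviate together.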

Additional observations from a re-analysis of the deposited data

How the results depend on the processing

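Counts of called departures moved with most settings. Against 10 higher and 3 lower, the counts were 2 and 1 with a pseudocount of 0.1, 3 higher without a filter (78675 sequences tested), 18 higher without a mean trend, 35 and 22 with array weights, and 0 and 0 among 4548 sequences averaging 5 FPKM or more, a setting that leaves out most of the called ones (457 at an unadjusted p under 0.05 by limma). The lower count was 6 on square roots, 6 on untransformed FPKM, 6 without the 4 most abundant sequences and 5 after quantile normalization. Against 10 peaks there were 3 with a pseudocount of 5, 4 on square roots, 5 on untransformed FPKM, 2 without a filter, 6 at a mean of at least 5 FPKM and 83 with array weights. Against 0 troughs there were 3 with a pseudocount of 0.1, 1 after median-of-ratios rescaling, 4 with array weights and 2 after quantile normalization. With a single library left out there were 3 to 19 higher, 2 to 12 lower, 2 to 19 peaks and 0 to 1 troughs; leaving out 8 of the 9 libraries moved at least 1 of the counts above 0 by over 1.5 times, the exception being 30 mM replicate 3. The cause was not tested.

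The correlation of deviations between same-numbered libraries was -0.013 to 0.027 in 9 pairs, and 4 libraries correlated best with their own number. No pairing by number was thus seen in the values. The labels do not say whether a number marks a shared plant, batch or day, and these correlations cannot settle it. With the replicate number as a block the counts were 2 higher, 1 lower and 2 peaks.

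Of 1341 values of the 64 named sequences under these alternatives, 1323 kept their direction and side of the threshold, 9 passed it and 2 lost it. Most of the named sequences were not called to begin with, so most of these values kept their side by staying uncalled. Signs turned in 7: T30_2_TRINITY_DN299_c0_g1 gave -0.05 with a pseudocount of 5, -0.15 on square roots and -2.49 on untransformed FPKM; T15_1_TRINITY_DN58557_c1_g1 gave -0.40 on square roots and -10.59 on untransformed FPKM; T30_2_TRINITY_DN11898_c0_g1 gave -1.99 on untransformed FPKM; TCK_2_TRINITY_DN946_c0_g1 gave 0.07 without 15 mM replicate 2, within -0.22 to 0.07 when single libraries were left out. Read counts are not used here, so how far depth limits low sequences cannot be given.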
